A study of Mus musculus with 6 samples.

Results

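The STAT (signal transducer and activator of transcription) genes described here are Stat2, Stat3, Stat4, Stat5a, Stat5b and Stat6, taken by symbol from a table of read counts over 32377 mouse gene identifiers. All 6 were found, and all 6 passed the filter on low counts that left 17022 genes for testing. The table holds 6 poly(A) RNA-seq libraries of mouse cells, 3 labelled TNFR2-deficient regulatory T (Treg) cells and 3 labelled TNFR2-positive Treg cells. TNFR2, encoded by Tnfrsf1b, binds tumour necrosis factor and marks strongly suppressive Treg cells, and the series sets Treg cells that lack it against Treg cells that carry it. The labels give no tissue, strain, allele, age, treatment, cell sort or source animal, so whether the 3 libraries of a group came from separate animals is not known here, and p-values then reflect only how far these libraries spread, possibly for technical reasons.

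STAT proteins wait in the cytoplasm until a cytokine receptor is engaged. JAK kinases bound to the receptor then phosphorylate them, and the paired STAT proteins move to the nucleus and bind DNA. Each member serves its own cytokines. STAT2 carries the type I interferon signal together with IRF9, STAT3 the signals of IL-6, IL-10 and IL-21, STAT4 that of IL-12, STAT5A and STAT5B those of IL-2 and IL-7, and STAT6 that of IL-4. In Treg cells STAT5 downstream of the IL-2 receptor is needed to keep Foxp3 on, and STAT3 is needed for the control of Th17 responses.

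Tnfrsf1b went with the labels, at 8.30, 7.99 and 7.32 CPM (counts scaled to the library total with TMM factors) in the TNFR2-deficient libraries, against 84.6, 84.2 and 80.2 CPM in the TNFR2-positive libraries. The Treg label of the TNFR2-deficient libraries did not go with its markers. Foxp3, which defines Treg cells, was at 1.44 ± 0.0974 CPM in TNFR2-deficient libraries and 75.5 ± 2.14 CPM in TNFR2-positive libraries, and Rag1, the recombinase of developing lymphocytes, at 917.9 ± 72.7 and 3.31 ± 0.0785 CPM (SD, n = 3 each, TNFR2-deficient libraries first). Of 12 Treg markers, all 12 were lower in the libraries labelled TNFR2-deficient, with summed levels of 41.2 to 48.1 CPM against 665.6 to 728.4 CPM in TNFR2-positive libraries. All 10 markers of double-positive thymocytes (CD4+CD8+ T cell precursors) were higher, with 3102 to 3209 CPM against 324.9 to 344.0 CPM. Of all genes tested, 34.2% were lower and 35.1% higher. Trac, a constant gene of the T cell receptor, was at 208.6 ± 3.95 CPM in TNFR2-deficient libraries and 141.1 ± 1.71 CPM in TNFR2-positive libraries. Summed markers of B cells were at 8020 to 8451 CPM against 6536 to 6773 CPM, those of red cell precursors at 17979 to 20531 CPM against 4222 to 6994 CPM, those of platelets at 13.6 to 16.0 CPM against 4.60 to 5.15 CPM, those of myeloid cells at 990.8 to 1077 CPM against 490.2 to 546.3 CPM, and those of NK and cytotoxic cells at 68.5 to 69.8 CPM against 196.2 to 209.4 CPM, each with TNFR2-deficient libraries first. The sums do not show how single markers differed. Of the 8 B cell markers, 5 were higher and 2 lower in TNFR2-deficient libraries. Of the 10 myeloid markers, 7 were higher and 0 lower. All 7 markers of red cell precursors and all 4 tested platelet markers were higher, and all 8 NK and cytotoxic markers were lower. These counts stand beside the 35.1% higher and 34.2% lower of all genes tested. No marker of these 7 lists that passed the filter was at 0 in every library of a group. The part of these cell types in the STAT values was not tested, and fewer cells of a type cannot be told apart from less RNA per cell. Total counts ran from 22465991 to 24038118 in TNFR2-deficient libraries and from 19296082 to 23587552 in TNFR2-positive libraries, where 3 counts equal 0.125 to 0.155 CPM. TNFR2-positive library 1 stood apart from the other libraries of its group (chi-square per gene of 13.9 and 18.5, against 2.45 between the other two).

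Promoter windows of the STAT genes, 250 bases before to 50 bases after the annotated start, are shown for Stat3 and Stat4, the members that differed between the groups, and for Stat2, whose window matched the most motifs. They come from RefSeq on build GRCm38.p6, an older build than the GRCm39 named in the submitters' processing notes, with each sequence 5′ to 3′ on the gene's own strand. Capitals mark a match to a motif searched on both strands. All 6 members had an entry, with 9 windows in all, and 1 of the 2 windows of Stat4 is shown. The windows lie at chr11:100939491-100939790 on the minus strand for Stat3, at chr1:52007990-52008289 on the plus strand for Stat4 and at chr10:128270248-128270547 on the plus strand for Stat2.
Stat3: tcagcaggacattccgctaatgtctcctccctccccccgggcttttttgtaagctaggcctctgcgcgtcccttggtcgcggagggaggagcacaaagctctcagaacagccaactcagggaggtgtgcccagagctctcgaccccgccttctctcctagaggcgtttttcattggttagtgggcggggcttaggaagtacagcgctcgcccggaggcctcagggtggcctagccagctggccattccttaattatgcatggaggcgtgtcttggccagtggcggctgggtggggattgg
Stat4: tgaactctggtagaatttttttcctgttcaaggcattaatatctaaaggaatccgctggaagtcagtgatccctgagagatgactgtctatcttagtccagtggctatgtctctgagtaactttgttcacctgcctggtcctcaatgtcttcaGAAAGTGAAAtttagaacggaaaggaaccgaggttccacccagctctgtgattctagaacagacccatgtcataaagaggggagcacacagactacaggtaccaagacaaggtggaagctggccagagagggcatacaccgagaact
Stat2: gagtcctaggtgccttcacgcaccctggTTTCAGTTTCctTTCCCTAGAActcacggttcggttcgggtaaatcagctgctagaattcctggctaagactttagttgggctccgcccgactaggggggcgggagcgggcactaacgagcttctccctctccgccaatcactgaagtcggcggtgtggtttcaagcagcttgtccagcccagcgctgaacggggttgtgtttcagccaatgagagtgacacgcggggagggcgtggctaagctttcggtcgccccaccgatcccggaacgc

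The palindrome bound by most STAT pairs, TTCNNNGAA (TTC and GAA with 3 bases between them), was in 0 of the 9 windows of the family and in 8.30% of all 32851 windows of the same length. The wider form with 4 bases between TTC and GAA, preferred by STAT6, was in 1 of 9 and in 6.95% of all windows. GAAA repeated after 2 bases, the core of the element bound by STAT2 with IRF9, was in 2 of 9 and in 3.44% of all windows. In the Stat2 window TTCCCTAGAA began at base -210 and TTTCAGTTTC, the reverse strand of the interferon core, at base -222, counted from the start site as base 1 with no base 0. In the second Stat4 window GAAAGTGAAA began at base -97. The 2 motifs in the Stat2 window do not overlap. A match is a run of letters and no test of binding.

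Stat5a and Stat5b are neighbours on chromosome 11 that encode closely related proteins, and their second windows share a stretch of 65 bases. It lies at chr11:100860418-100860482 on the plus strand (bases -66 to -2 from the Stat5a start) and at chr11:100822563-100822627 on the minus strand (bases -57 to 8 from the Stat5b start). The stretch is shown because the 2 genes also share part of their transcripts, which bears on their counts. Of the 65 bases, 58 (89.2%) are identical and are in capitals.
Stat5a: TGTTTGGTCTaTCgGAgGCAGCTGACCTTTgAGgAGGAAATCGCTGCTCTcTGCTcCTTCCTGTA
Stat5b: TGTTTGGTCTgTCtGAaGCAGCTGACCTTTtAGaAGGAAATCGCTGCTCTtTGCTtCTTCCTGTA

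Stat3 and Stat4 fell in TNFR2-deficient libraries, while the tests of Stat2, Stat5a, Stat5b and Stat6 did not pass the threshold of an adjusted p of 0.05 (edgeR's quasi-likelihood test with Benjamini-Hochberg adjustment over all genes tested). In total 2 of 6 members were lower and 0 were higher, where 69.3% of all genes tested passed, 34.2% lower and 35.1% higher. At an unadjusted p below 0.05, which 71.7% of all genes had, the family had 3 lower and 0 higher members, DESeq2 gave 3 lower and 0 higher, and limma-voom gave 2 lower and 0 higher, where these rules in turn called 35.1%, 33.7% and 34.1% of all genes lower and 36.5%, 30.4% and 35.2% higher. The libraries of the 2 groups did not overlap for 5 of 6 members, 4 lower and 1 higher in TNFR2-deficient libraries, where 74.5% of all genes did not overlap, 36.3% lower and 38.2% higher. The members' median log2 fold change (TNFR2-deficient over TNFR2-positive) was -0.12 and the median of its size 0.13, beside 0.04 and 0.49 over all genes tested.

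**Figure D1:**
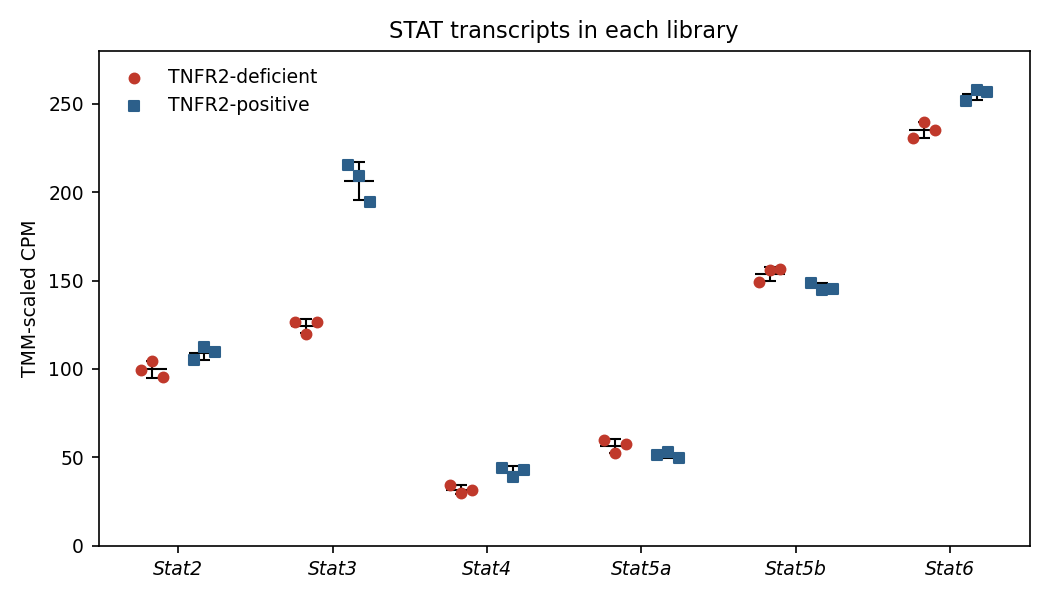
TMM-scaled CPM (y axis) of the 6 STAT genes (x axis) in each library, with circles for TNFR2-deficient libraries on the left and squares for TNFR2-positive libraries on the right of each pair; horizontal lines are means and bars are SD over 3 libraries. Stat3 is at 119.7 to 126.5 CPM in TNFR2-deficient libraries, below the 194.5 to 215.3 CPM of TNFR2-positive libraries, and the other pairs lie closer together.

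Stat3 (ENSMUSG00000004040, chromosome 11), which carries the IL-6, IL-10 and IL-21 signals, had 126.5, 119.7 and 126.4 CPM in TNFR2-deficient libraries, against 215.3, 209.0 and 194.5 CPM in TNFR2-positive libraries. Every TNFR2-deficient library was below every TNFR2-positive library. The means were 124.2 ± 3.88 and 206.3 ± 10.7 CPM (SD, n = 3 each, TNFR2-deficient first), a 1.66-fold lower level with a log2 fold change of -0.73 (SE 0.0616, 95% interval -0.87 to -0.60, adjusted p = 1.08e-06). Its fold change was larger in size than that of 67.6% of the genes tested. When the dependence of each library's counts on exonic and intronic gene length was removed, Stat3 had a log2 fold change of -0.27 (adjusted p = 0.000284).

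Stat4 (ENSMUSG00000062939, chromosome 1), the transducer of IL-12 in Th1 and NK cells, had 34.2, 29.6 and 31.5 CPM in TNFR2-deficient libraries, against 44.2, 38.6 and 43.0 CPM in TNFR2-positive libraries. The groups did not overlap, with a gap of a few CPM between the highest TNFR2-deficient and the lowest TNFR2-positive library. The means were 31.8 ± 2.36 and 41.9 ± 2.96 CPM (SD, n = 3 each, TNFR2-deficient first), a 1.32-fold lower level with a log2 fold change of -0.40 (SE 0.0772, 95% interval -0.57 to -0.23, adjusted p = 0.000616). All 8 markers of NK and cytotoxic cells were lower in TNFR2-deficient libraries, as were all 12 Treg markers, where 34.2% of all genes tested were lower. Whether these cells bear on the Stat4 level was not tested. The predicted gene Gm28177 lies over the Stat4 model on the same strand and shares 840 of its 3871 stretches of 50 bases (21.7%), so a part of the Stat4 reads could have been assigned to it or left out; it held 3, 5 and 4 counts in TNFR2-deficient libraries and 0, 2 and 3 counts in TNFR2-positive libraries.

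Stat5a (ENSMUSG00000004043, chromosome 11), which carries the IL-2 and IL-7 signals with Stat5b, had 59.7, 52.2 and 57.4 CPM in TNFR2-deficient libraries, against 51.3, 52.7 and 49.5 CPM in TNFR2-positive libraries. The groups overlapped, with TNFR2-deficient library 2 inside the range of the TNFR2-positive libraries. The means were 56.4 ± 3.83 and 51.2 ± 1.61 CPM (SD, n = 3 each, TNFR2-deficient first), and the ratio of 1.10 had a 95% interval of 0.996 to 1.22 (adjusted p = 0.0792). Without TNFR2-deficient library 2 the log2 fold change was 0.18 (adjusted p = 0.0380), against 0.14 with all libraries. Stat5b (ENSMUSG00000020919, chromosome 11) had 149.2, 155.7 and 156.5 CPM in TNFR2-deficient libraries, against 148.6, 144.7 and 145.4 CPM in TNFR2-positive libraries. Its groups did not overlap, but TNFR2-deficient library 1 lay within 1 CPM of TNFR2-positive library 1. The means were 154 CPM in TNFR2-deficient libraries and 146 CPM in TNFR2-positive libraries (n = 3 each), and the ratio of 1.05 had a 95% interval of 0.967 to 1.14 (adjusted p = 0.263). With the length relation removed, both passed, at 0.38 for Stat5a (adjusted p = 4.37e-05) and 0.30 for Stat5b (adjusted p = 9.94e-05), so the calls of these members depend on that setting. Stat5b shares 608 of its 5535 stretches of 50 bases (11%) with Stat5a, and how the authors counted reads with several positions is not given in the sources used here, so the split of reads between the 2 genes is uncertain.

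Stat6 (ENSMUSG00000002147, chromosome 10), the transducer of IL-4 and IL-13, had 230.5, 239.8 and 235.1 CPM in TNFR2-deficient libraries, against 251.4, 258.0 and 256.8 CPM in TNFR2-positive libraries. The groups did not overlap, and the spread within each was small. The means were 235 ± 4.68 and 255 ± 3.53 CPM (SD, n = 3 each, TNFR2-deficient first), and the ratio of 0.921 had a 95% interval of 0.848 to 0.9998. The unadjusted p was 0.0496 and the adjusted p 0.0692 by edgeR, while DESeq2 gave a log2 fold change of -0.15 with an adjusted p of 0.0276, and edgeR with RLE scaling -0.15 with an adjusted p of 0.0263. Stat2 (ENSMUSG00000040033, chromosome 10), the partner of IRF9 in interferon signalling, had 99.4, 104.4 and 95.3 CPM in TNFR2-deficient libraries, against 104.8, 112.3 and 109.4 CPM in TNFR2-positive libraries. The groups lay side by side without overlap, TNFR2-deficient library 2 being within 1 CPM of TNFR2-positive library 1. The means were 99.7 ± 4.59 and 108.8 ± 3.76 CPM (SD, n = 3 each, TNFR2-deficient first), and the ratio of 0.916 had a 95% interval of 0.835 to 1.004 (adjusted p = 0.0823). With the length relation removed, the log2 fold change of Stat2 was 0.013 (adjusted p = 0.854) and that of Stat6 -0.14 (adjusted p = 0.0194). Without TNFR2-positive library 1, the one that stood apart, Stat2 had a log2 fold change of -0.16 (adjusted p = 0.0121) and Stat6 of -0.13 (adjusted p = 0.0122), so 4 members were then lower.

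**Figure D2:**
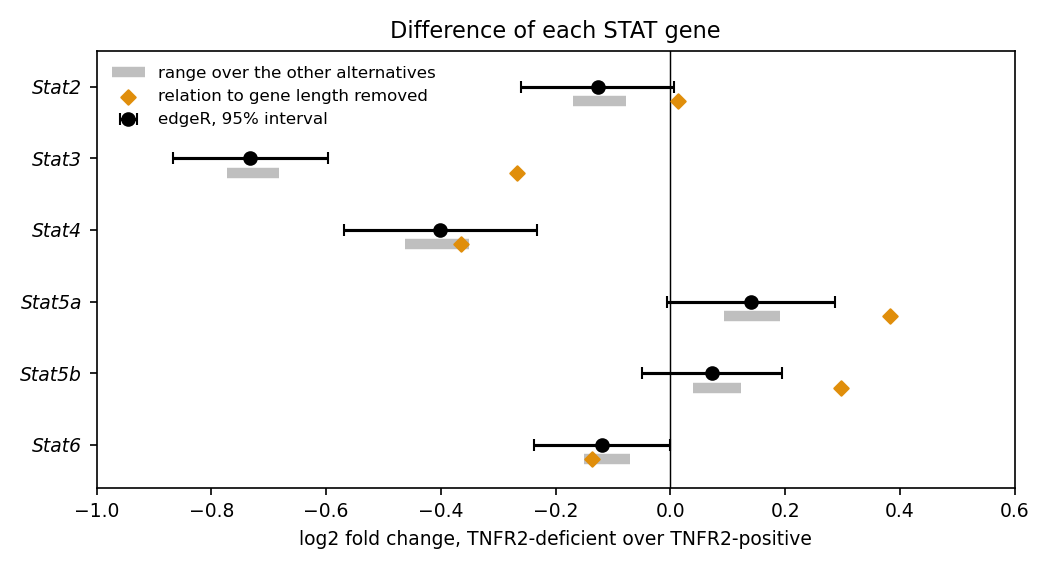
Log2 fold change, TNFR2-deficient over TNFR2-positive (x axis), of the 6 STAT genes (y axis); black points and bars are edgeR estimates with 95% intervals, grey bands the range over the other alternatives and diamonds the fit with the length relation removed. Stat3 (-0.73) and Stat4 (-0.40) lie left of 0 in every setting, and the diamond of Stat2 (0.013) lies on the other side of 0 from its point (-0.13).

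Divided by the length of the merged exons, so that genes can be compared, Stat6 was the most abundant member at 53.4 ± 1.06 CPM per kb in TNFR2-deficient libraries and 58.0 ± 0.803 CPM per kb in TNFR2-positive libraries. Stat5b followed, at 27.8 ± 0.720 and 26.4 ± 0.379 CPM per kb. Behind it the order differed between the groups. In TNFR2-deficient libraries Stat2 (16.8 ± 0.775 CPM per kb) lay above Stat3 (13.0 ± 0.407 CPM per kb), and in TNFR2-positive libraries it lay below, with Stat2 at 18.4 ± 0.635 and Stat3 at 21.7 ± 1.12 CPM per kb, and the libraries of the 2 genes overlapped in neither group. Stat4 and Stat5a came last, at 8.21 ± 0.609 and 7.91 ± 0.537 CPM per kb in TNFR2-deficient libraries, where their libraries overlapped, and at 10.8 ± 0.765 and 7.18 ± 0.226 CPM per kb in TNFR2-positive libraries, where they did not (SD, n = 3 each). The order depends on the length used. With the longest annotated transcript, Stat3 (34.1 ± 1.77 CPM per kb) lay above Stat5b (28.1 ± 0.403 CPM per kb) in TNFR2-positive libraries, and in TNFR2-deficient libraries Stat2 (22.7 ± 1.04) and Stat3 (20.6 ± 0.642) kept their order, while Stat5a (14.3 ± 0.967) lay above Stat4 (10.7 ± 0.790 CPM per kb). Which isoforms were present was not measured.

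Summed over the 6 members, the family had 699.5, 701.4 and 702.1 CPM in TNFR2-deficient libraries, against 815.7, 815.4 and 798.6 CPM in TNFR2-positive libraries, without overlap. Most of that difference in CPM is the difference of Stat3. The shares of the family's summed CPM per kb show how the mixture differed. Stat3 made up 10.3 ± 0.361% in TNFR2-deficient libraries and 15.2 ± 0.710% in TNFR2-positive libraries. Stat5b made up 21.8 ± 0.486% and 18.5 ± 0.259%, Stat5a 6.22 ± 0.450% and 5.04 ± 0.132%, and Stat6 42.0 ± 0.641% and 40.7 ± 0.661% (SD, n = 3 each, TNFR2-deficient first in each pair). For each of these 4 shares the groups did not overlap, with an exact two-sided permutation p of 0.1, which is the smallest that 3 libraries against 3 allow, and 0.175 after adjustment over 7 shares. Stat2 made up 13.2 ± 0.579% and 12.9 ± 0.453%, and Stat4 6.46 ± 0.509% and 7.60 ± 0.555% (exact permutation p = 0.5 and 0.2). Shares of a whole are bound to each other, so a lower share of Stat3 goes with higher shares elsewhere. Within the Stat5 pair, Stat5b made up 77.8 ± 1.52% in TNFR2-deficient libraries and 78.6 ± 0.605% in TNFR2-positive libraries (exact permutation p = 0.6). The level of this share depends on the length used. It was 67.4% and 68.4% with the longest transcript, and 73.2% and 74.1% without division by length, TNFR2-deficient first. The uncertain split of reads between the 2 genes also bears on it.

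**Figure D3:**
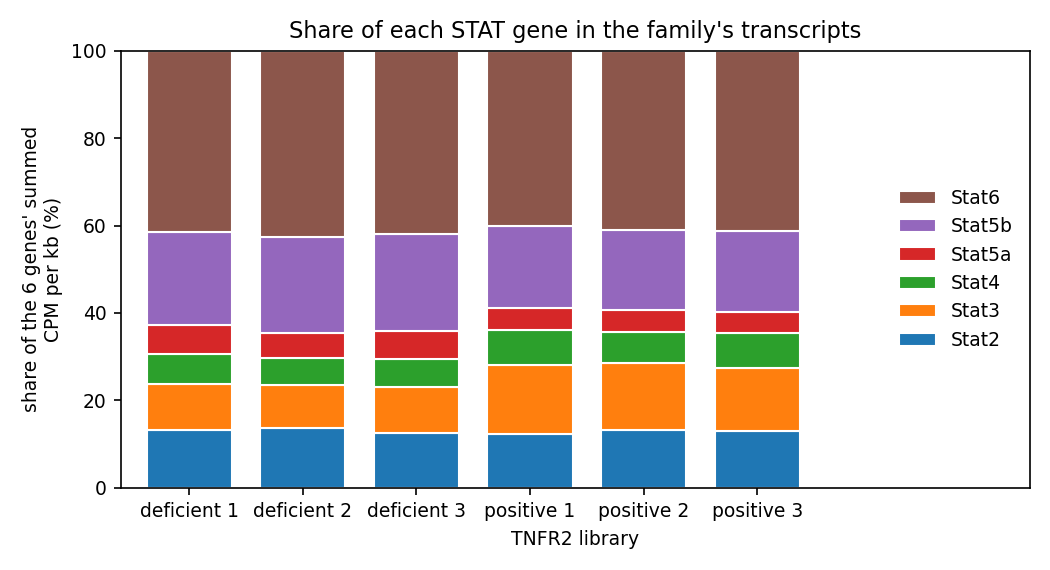
Share of each STAT gene in the summed CPM per kb of the 6 genes (y axis, percent) in each library (x axis), TNFR2-deficient libraries on the left. Stat6 is the largest block in all 6 libraries and the Stat3 block averages 10.3% in TNFR2-deficient and 15.2% in TNFR2-positive libraries.

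For each member, the 2 named genes with the most similar profile over the 6 libraries were found by the root mean square difference of centred log2(CPM + 0.5) values, among 9715 genes with a mean of at least 5 CPM. For Stat3 these were Mcur1 (0.0236) and Bicral (0.0262), with log2 fold changes of -0.75 and -0.73. For Stat4 they were Magt1 (0.0261) and Naa16 (0.0270), with -0.39 and -0.40. Stat6 had the closest neighbours, Kars (0.0101) and Casp8 (0.0119). Stat2 was closest to Ddx18 (0.0151) and Acot2 (0.0195), Stat5b to Nle1 (0.0178) and Slc35f6 (0.0205), and Stat5a to Ppp3r1 (0.0240) and St3gal6 (0.0269). With 2 groups and 6 libraries, many genes are close to any given profile, and the likeness is a description only.

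All 4 JAK kinases, which phosphorylate the STAT proteins at the receptor, fell in TNFR2-deficient libraries, where 34.2% of all genes fell, with a median log2 fold change of -0.62. Jak1, which serves most STAT-activating receptors, had 370.3, 361.5 and 373.3 CPM in TNFR2-deficient libraries, against 840.5, 723.2 and 722.9 CPM in TNFR2-positive libraries (log2 fold change -1.05, adjusted p = 1.52e-07). Jak2, used by the interferon gamma and IL-12 receptors, averaged 119 ± 5.33 and 208 ± 19.2 CPM (-0.81, adjusted p = 1.85e-06). Jak3, which binds the common gamma chain, averaged 76.3 ± 2.20 and 100.5 ± 8.07 CPM (-0.40, adjusted p = 0.000264). Tyk2, used by the type I interferon and IL-12 receptors, averaged 67.7 ± 1.84 and 90.5 ± 2.22 CPM (-0.42, adjusted p = 4.57e-05), with TNFR2-deficient libraries first in each pair. With the length relation removed, Tyk2 had a log2 fold change of -0.18 (adjusted p = 0.00482), and all 4 kinases still passed.

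Of 20 cytokine receptor chains, 12 fell and 6 rose in TNFR2-deficient libraries, where 34.2% of all genes tested fell and 35.1% rose. The 2 chains with the greatest differences, Il2ra and Il2rb, lead to STAT5. Il2ra, the high-affinity chain of the IL-2 receptor and itself a Treg marker, averaged 6.87 ± 0.865 CPM in TNFR2-deficient libraries and 169 ± 11.9 CPM in TNFR2-positive libraries (log2 fold change -4.62, adjusted p = 1.5e-11). Il2rb, the signalling chain shared with IL-15, averaged 21.2 ± 1.89 and 215.6 ± 5.10 CPM (-3.35, adjusted p = 2.33e-11), and Il7r, which receives IL-7, 25.1 ± 1.48 and 186 ± 17.1 CPM (-2.89, adjusted p = 1.27e-10), TNFR2-deficient first. The following chains were picked after their values were seen. The common gamma chain Il2rg had a log2 fold change of 0.20 (adjusted p = 0.00983), which was -0.0021 with the length relation removed and missed the threshold without TNFR2-deficient library 2 (0.17, adjusted p = 0.06999). Among the receptors that use STAT3, Il6ra and the shared chain Il6st fell, with log2 fold changes of -1.46 and -1.14. The IL-10 receptor chains Il10ra and Il10rb fell as well, with -0.39 and -2.50, while Il21r rose, with 0.51. In the same list Il23r (-2.96, at a mean of 0.189 CPM in TNFR2-deficient libraries) and Il27ra (-0.86) fell, and Il9r (0.39) rose. Il6st was at -0.62 with the length relation removed. Of the type I interferon receptor chains Ifnar1 fell (-0.97) and Ifnar2 rose (0.34), and the interferon gamma receptor chain Ifngr1 rose (0.66). Il4ra, the chain that recruits STAT6, was at 236 ± 1.91 CPM in TNFR2-deficient libraries and 238 ± 2.23 CPM in TNFR2-positive libraries, with a log2 fold change of -0.01 (95% interval -0.13 to 0.11, adjusted p = 0.890), which was 0.17 (adjusted p = 0.00676) with the length relation removed.

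Of 17 cytokine ligands, 12 passed the filter on low counts and 4 of them fell, a share close to the 34.2% of all genes that fell, with none rising by edgeR (1 at an unadjusted p below 0.05, 0 by DESeq2 and 1 by limma-voom). Leaving out TNFR2-deficient library 1 or TNFR2-positive library 1 or 2 gave 1 higher ligand, and leaving out TNFR2-positive library 3 gave 2. Lif, a cytokine of the IL-6 family that acts through STAT3, had 2 counts over all TNFR2-deficient libraries and 129 over all TNFR2-positive libraries. From these pooled counts it was 69.6 times lower in TNFR2-deficient libraries (95% counting interval 18.9 to 581). The 2 counts were in TNFR2-deficient library 1. Lif was at 0 in TNFR2-deficient libraries 2 and 3. There the level was at least 30.9-fold lower, taking 3 counts over these libraries as the floor. The edgeR fit, a separate estimate, gave Lif a log2 fold change of -5.87 (adjusted p = 2.51e-06). Il10, an inhibitory cytokine of Treg cells that acts through STAT3, averaged 0.347 ± 0.0771 and 4.61 ± 0.788 CPM (log2 fold change -3.71, adjusted p = 2.67e-07). Ifng averaged 0.842 ± 0.295 and 2.33 ± 0.599 CPM (-1.47, adjusted p = 0.000911), TNFR2-deficient first.

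Of 18 negative regulators of the pathway, 10 fell and 4 rose, where 34.2% of all genes fell and 35.1% rose. Cish, a feedback inhibitor induced by STAT5, averaged 1.08 ± 0.0878 CPM in TNFR2-deficient libraries and 18.9 ± 0.549 CPM in TNFR2-positive libraries (log2 fold change -4.12, adjusted p = 2.35e-10), and Socs2, also induced by STAT5, 2.01 ± 0.302 and 18.5 ± 2.80 CPM (-3.20, adjusted p = 1.11e-08). Socs1, which blocks JAK kinases, went the other way, at 14.5 ± 0.508 and 4.20 ± 0.560 CPM (1.80, adjusted p = 1.46e-07), TNFR2-deficient first.

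**Figure D4:**
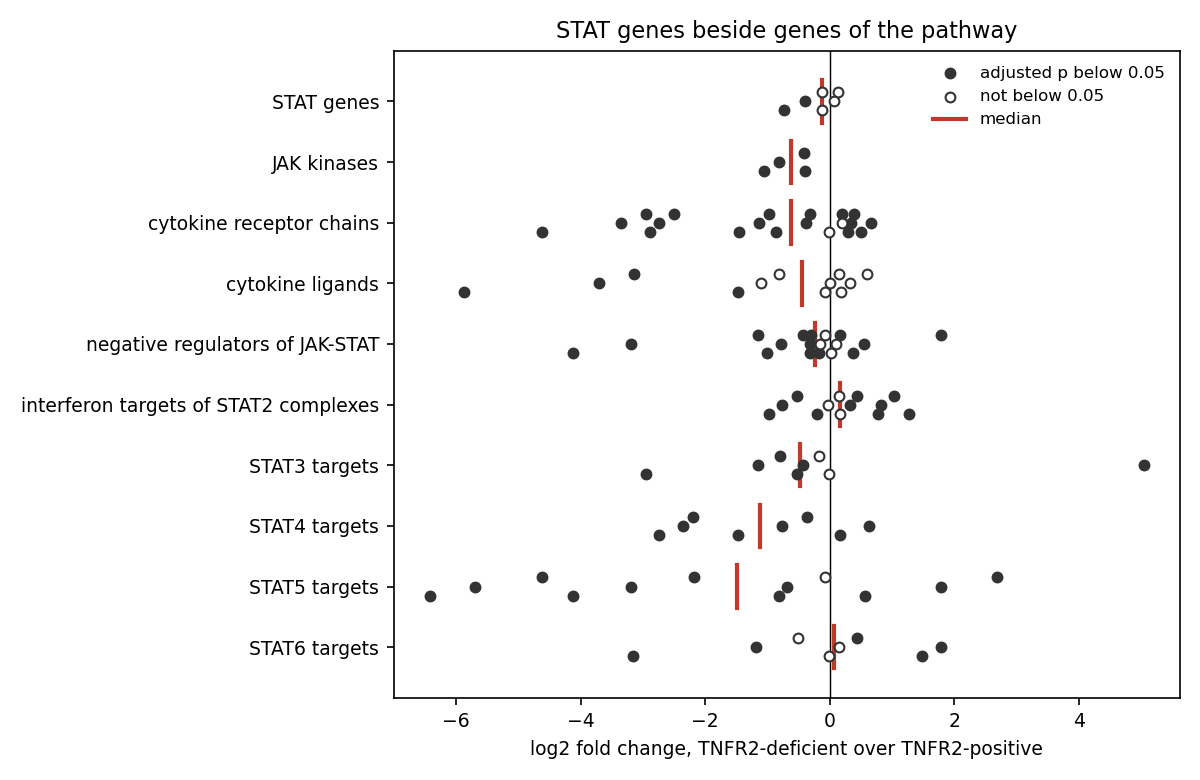
Log2 fold change, TNFR2-deficient over TNFR2-positive (x axis), of the tested genes of the STAT family and of 9 lists of the JAK-STAT pathway and of STAT target genes (y axis); filled points have an adjusted p below 0.05 and red bars are medians. The STAT genes have a median of -0.12 and lie close to 0, while receptor chains and STAT5 targets reach below -4.

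Target genes were grouped by the STAT protein that is known to control them. The STAT5 targets had a median log2 fold change of -1.49, with 8 lower and 3 higher of 12, where 34.2% of all genes were lower and 35.1% higher. Ctla4, an inhibitory receptor, averaged 1.18 ± 0.173 CPM in TNFR2-deficient libraries and 102.3 ± 2.63 CPM in TNFR2-positive libraries (log2 fold change -6.43, adjusted p = 1.06e-12). The log2 fold change of Foxp3 was -5.70 (adjusted p = 1.46e-12). Ctla4, Foxp3 and Il2ra are Treg markers as well as STAT5 targets, so 3 of these 12 genes stand in both lists. Bcl2l1, a survival gene picked after its values were seen, rose (2.68), while Bcl2 fell (-0.81, and -0.43 once the gene length relation was taken out). The transcripts of Stat5a and Stat5b differed by the small amounts given above while those of the receptor chains and many targets differed by far more; the activity of the STAT5 proteins was not measured.

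Of 8 STAT3 targets tested (10 listed), 5 fell, with a median log2 fold change of -0.48, where 34.2% of all genes fell. Socs3, the feedback inhibitor of IL-6 family receptors, averaged 36.5 ± 2.74 CPM in TNFR2-deficient libraries and 81.0 ± 4.07 CPM in TNFR2-positive libraries (-1.15, adjusted p = 9.48e-08), and Junb, an AP-1 subunit, 279 ± 5.63 and 487 ± 46.0 CPM (-0.80, adjusted p = 1.74e-06), TNFR2-deficient first.

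Of 8 STAT4 targets, 6 fell and 2 rose, with a median log2 fold change of -1.12, where 34.2% of all genes fell and 35.1% rose. By DESeq2, and without TNFR2-deficient library 1 or 3 or TNFR2-positive library 2 or 3, 1 of them rose. The IL-12 receptor chain Il12rb2 averaged 0.277 ± 0.137 CPM in TNFR2-deficient libraries and 1.86 ± 0.216 CPM in TNFR2-positive libraries (-2.74, adjusted p = 3.17e-05). The IL-18 receptor chains Il18r1 and Il18rap averaged 7.34 ± 0.460 and 6.13 ± 0.374 CPM in TNFR2-deficient libraries, against 37.4 ± 5.02 and 28.0 ± 3.31 CPM in TNFR2-positive libraries, with log2 fold changes of -2.35 (adjusted p = 7.35e-09) and -2.19 (adjusted p = 1.26e-08). Tbx21, the Th1 transcription factor, picked after its value was seen, rose (0.64).

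Of 13 interferon targets of STAT2 complexes, 6 rose and 4 fell, with a median log2 fold change of 0.17, where 35.1% of all genes rose and 34.2% fell. Ifi44 averaged 2.89 ± 0.285 CPM in TNFR2-deficient libraries and 1.19 ± 0.104 CPM in TNFR2-positive libraries (1.27, adjusted p = 0.000165), and the antiviral gene Rsad2 30.3 ± 1.68 and 14.8 ± 0.924 CPM (1.03, adjusted p = 5.14e-07). Ifit1, also antiviral, averaged 5.54 ± 0.215 and 10.8 ± 1.40 CPM (-0.97, adjusted p = 2.51e-05), TNFR2-deficient first. Irf9, the partner of STAT2, averaged 97.3 ± 0.918 and 112 ± 6.38 CPM (-0.20, adjusted p = 0.0108), and missed the threshold with the length relation removed (-0.11, adjusted p = 0.117).

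Of 8 STAT6 targets, 3 rose and 2 fell, with a median log2 fold change of 0.07, where 35.1% of all genes rose and 34.2% fell. With the length relation removed 5 of the 8 rose, where 38% of all genes did. The chemokine receptor Ccr8 averaged 0.339 ± 0.285 CPM in TNFR2-deficient libraries and 3.13 ± 0.119 CPM in TNFR2-positive libraries (-3.16, adjusted p = 1.5e-05), and its log2 fold change was -4.11 without TNFR2-deficient library 3, which held the most Ccr8 of its group. The transcriptional repressor Gfi1 averaged 36.9 ± 1.30 and 13.2 ± 0.594 CPM (1.48, adjusted p = 1.21e-08), TNFR2-deficient first, and Socs1, given above, is the other listed target with a large increase. Gata3, the Th2 transcription factor, picked after its value was seen, had 18.4 ± 0.117 CPM in TNFR2-deficient libraries and 16.7 ± 0.323 CPM in TNFR2-positive libraries (0.14, adjusted p = 0.107), and passed under upper-quartile scaling (0.19, adjusted p = 0.0407) and with the length relation removed (0.18, adjusted p = 0.0484).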

How the data were processed

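The authors deposited whole-number read counts per gene for 6 mouse poly(A) RNA-seq libraries, without normalization. HISAT2 2.1.0 and the build GRCm39 are named in the submitters' processing notes; the sources used here do not give the counting program, its annotation, its strand setting or how multiply placed reads were treated. Columns were matched to samples by title. Symbols were found for 30529 of 32377 identifiers, and each column of values belonged to a sample.

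In R 4.3.3, edgeR 4.0.16 filtered the counts (filterByExpr), scaled them by TMM and tested them by quasi-likelihood (glmQLFit, then glmQLFTest), with the group as the design and p-values adjusted over 17022 genes; 0.05 was the threshold. The test was also run on simulated counts with known changes. DESeq2 1.42.0, limma-voom 3.58.1, other scalings and filters, a replicate block and leaving out each library were alternatives. A fit with length trends removed (splines on exonic and on intronic length) was another. The last left out the listed B cell, red cell precursor, platelet and myeloid markers and the mitochondrial genes. It kept all other genes, with 16968 tested, so it did not remove the reads of other cells. The effect of all alternatives is given in the closing section. The biological coefficient of variation was 7.62%. Intervals and the floor of 3 counts cover counting error or the fit only; reads carry no molecular identifiers.

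Exonic lengths, overlaps and shared stretches of 50 bases came from GENCODE M21, on an older build, so no coordinates from it are printed; a length was known for 97.8% of tested genes. Promoters came from a RefSeq table on GRCm38.p6.

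The members, the gene lists and the tests were chosen with earlier results of these data known. Genes named were the 6 members, Tnfrsf1b, Foxp3, Rag1, Trac, the 4 JAK kinases, the 3 genes of each other list with the greatest change past the threshold and a mean of at least 1 CPM, and the 2 genes nearest each member; others are said to have been picked after their values were seen. Length of the longest transcript was added after the data were seen. No list was tested as a set, and some items are not reported here.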

Additional observations from a re-analysis of the deposited data

How the results depend on the processing

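Over all alternatives, 955 of 976 log2 fold changes kept their direction and side of the threshold, and 332 of 352 counts of genes or list members lay within 1.5 times the count reported, which still lets 2 members lower become 3 with DESeq2. Stat3 (-0.77 to -0.27) and Stat4 (-0.46 to -0.35) stayed lower and past the threshold in every alternative. Upper-quartile scaling gave 1 STAT member higher, with Stat5a at 0.19 (adjusted p = 0.0227), and 1 ligand higher; RLE scaling gave 4 STAT members lower, with Stat2 at -0.16 and Stat6 at -0.15, and 1 STAT4 target higher; DESeq2 gave Stat6 at -0.15 and 1 STAT4 target higher. limma-voom, no filter and the filter of 1 CPM in 3 libraries each gave 1 ligand higher, and that filter gave Stat6 at -0.13. Without the listed B cell, red cell precursor, platelet and myeloid markers and the mitochondrial genes, Stat6 was at -0.14. With the length relation removed, 2 STAT members were higher (Stat5a 0.38, Stat5b 0.30), Stat2 was at 0.013, Stat6 at -0.14, 5 STAT6 targets were higher, and Il2rg was at -0.0021 and Il4ra at 0.17; Il4ra was at 0.041 under upper-quartile scaling and 0.022 without a filter. The cause was not tested. Leaving out 1 library at a time gave 0 to 1 members higher and 2 to 4 lower, with Stat2 from -0.17 to -0.10, Stat5a from 0.094 to 0.18, Stat6 from -0.14 to -0.11, 0 to 2 ligands higher and 1 to 2 STAT4 targets higher. Same-numbered samples of the groups deviated together little (r of 0.0664, 0.104 and -0.107 over 14472 genes). With 3 libraries per group these values cannot settle whether the numbers pair samples, and the labels do not say. The replicate block gave 6005 genes higher and 5851 lower, against 5983 and 5819 without it. It gave Stat3 at -0.73 and Stat4 at -0.40. The members had at least 655 counts in each library, while Lif rests on 2 counts in TNFR2-deficient libraries. The mixture of cells was not modelled.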
